A study of Panicum sumatrense with 28 samples.

Results

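In the cereal Panicum sumatrense (little millet), 200 of 101935 assembled transcripts formed a set that was present in every shoot tissue and lower in every root library than in any shoot library. The set was defined by rule from the same values that are described here. A transcript had to reach a floor of 5 in each of the 20 libraries of plumule, young leaf, crown meristem, vegetative stem and early, mid and late panicle. It was then scored as its lowest value in those 20 libraries plus 1, divided by its highest value in the 5 root libraries plus 1. Of the 101935 transcripts, 8672 met this shoot floor, 2959 of these scored above 1, and the 200 with the highest scores are the members.

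The libraries came from plants of genotype JK-8 grown in a growth chamber, and 28 libraries of 10 tissues were analysed. The shoot tissues were plumule at 3 days after sowing, young leaf (13 days), crown meristem (26 days), vegetative stem (48 days), and panicle early, mid and late, sampled at 61, 73 and 85 days. The root tissues were radicle at 3 days and young root at 13 days, and germinating seed was taken at 2 days. Each tissue had 3 libraries, except vegetative stem and young root with 2. The labels do not say whether libraries of a tissue represent different plants, and the p-values therefore measure only the spread between these libraries, which may be technical. Values are kallisto TPM, a length-corrected read share with a fixed total, that the authors scaled with TMM (a factor for each library). Means are printed ± SD with n = 3 libraries, and with n = 2 in vegetative stem and young root. Read depth is unknown for such values, and a value listed as exactly 0 can be a failed estimate as well as an absent RNA.

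The shoot of a grass seedling begins with the plumule, which carries the first leaves, and the root begins with the radicle. Leaves, stem and panicle, the last being the branched inflorescence that sets grain, all derive from shoot meristems, of which the crown meristem at the base of the plant is one. The root differs from these organs in growing without light, in lacking green plastids and in taking up water and minerals. The transcripts carry assembly identifiers only, with no gene name, so no function is given for any of them, and the tissue names could not be checked against marker genes.

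The rule set the direction of the difference between shoots and roots, and the values of that contrast are given as a description with no test. The members' lowest shoot value had a median of 13.1 and ran from 5.004 to 313, and their highest root value had a median of 1.51 and ran from 0 to 78.3. On the log2 scale used for testing, 200 of 200 members met the call rule in the shoot direction, against 20.9% higher and 10.7% lower among all 77548 transcripts tested, and 56.8% higher and 8.96% lower among those that met the shoot floor. Nothing is read from that count. The score fell quickly within the set: the first 5 members scored 73.5, 58.1, 40.3, 31.6 and 31.0, 31 members scored 10 or more, and member 200 scored 3.75. The edge of the set was not a gap. The last members, TRINITY_DN1198_c0_g2_i10 and TRINITY_DN3012_c0_g1_i14, scored 3.753 and 3.752, and the first transcripts outside it, TRINITY_DN3154_c0_g1_i5 and TRINITY_DN3842_c0_g1_i15, scored 3.750 and 3.742.

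The name of the set as missing from roots held for part of it. All 5 root libraries were listed at 0 for 54 members, and these were all the transcripts of the 8672 with no root signal in any library. The rule makes this so, because any transcript at the floor with all roots at 0 scores above the last member. A further 26, 15, 15 and 9 members were at 0 in 1, 2, 3 and 4 root libraries, and 81 were above 0 in all 5. The highest root value stayed under 1 in 80 members. Among the 146 members with any root signal, the highest root value lay in young root library 1 for 53 and library 2 for 47, and in radicle libraries 1, 2 and 3 for 31, 9 and 6. The set is described here as low in roots, with 54 transcripts not detected there. In bulk tissue, fewer cells of a type and less RNA per cell cannot be told apart.

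The top-ranked member, TRINITY_DN14155_c0_g2_i1, was listed at 0 in all 5 root libraries. Its values were 131, 214 and 129 in plumule, 83.6, 72.5 and 73.0 in young leaf, 135, 169 and 186 in crown meristem, and 151 and 147 in vegetative stem. In the panicle it had 210, 224 and 167 early, 95.0, 166 and 124 mid, and 72.9, 96.3 and 81.5 late. Every shoot library thus held at least 72.5, with early panicle highest and young leaf lowest by mean, a 2.62-fold range between tissues.

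TRINITY_DN51662_c0_g1_i1, next in score, was also at 0 in every root library and had a clear maximum in early panicle. It measured 380, 640 and 342 there, against 231, 232 and 229 in plumule, 113 and 117 in vegetative stem, and 66.3, 93.8 and 57.1 in young leaf. TRINITY_DN89147_c0_g1_i1, ranked 3, had 262, 148 and 107 in early panicle and its lowest mean, 40.6 ± 1.46, in crown meristem, again with 0 in all roots. TRINITY_DN21670_c0_g1_i1 led in crown meristem (107 ± 2.72) and TRINITY_DN17252_c0_g1_i1 in mid panicle (80.2 ± 14.3), both listed at 0 in all roots. The shoot tissues of TRINITY_DN17252_c0_g1_i1 did not pass limma's F test for differences among them (adjusted p = 0.571).

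**Figure D1:**
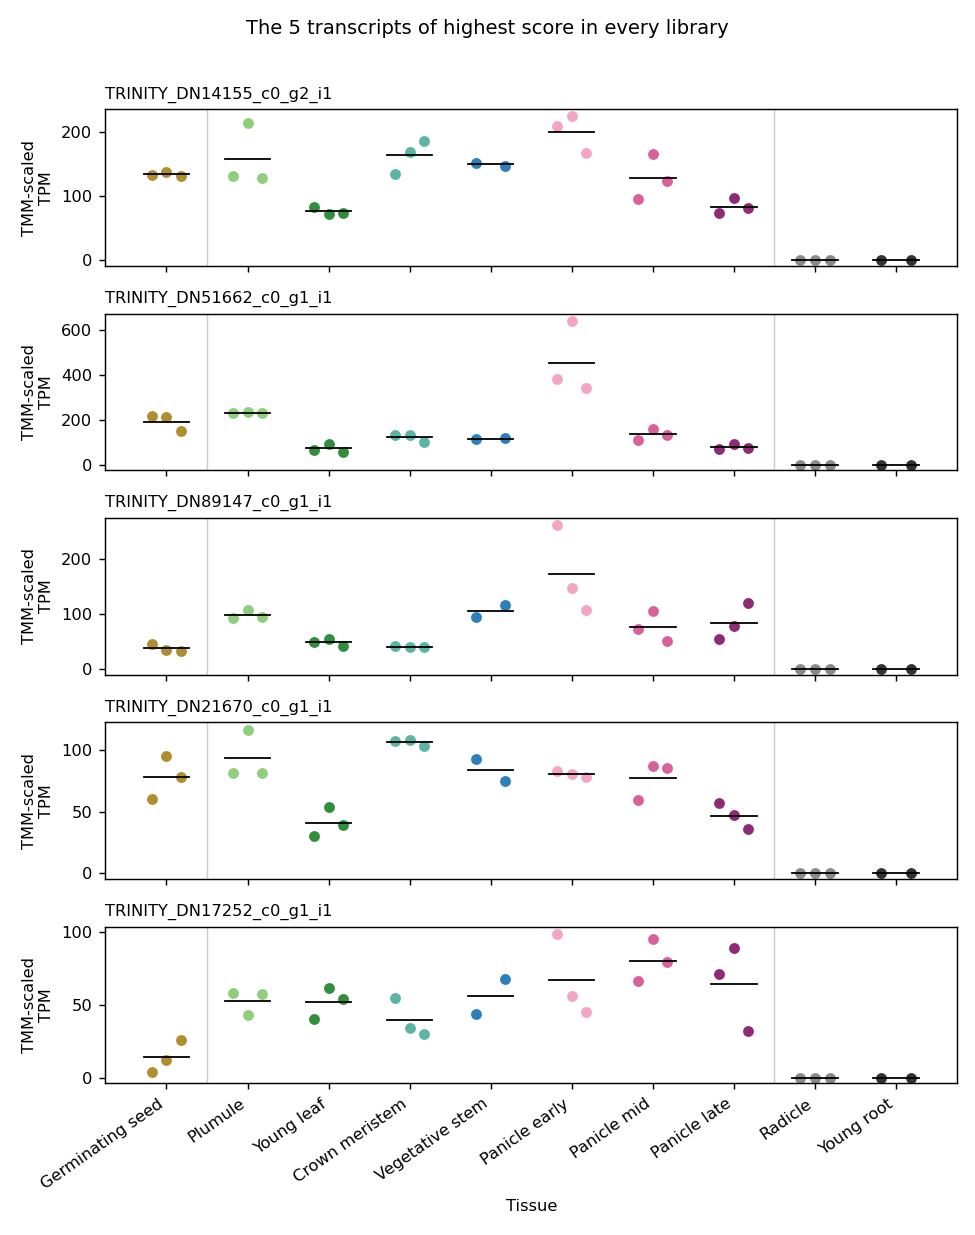
Values (TMM-scaled TPM, linear axes that differ between panels) of the 5 top-scored transcripts in every library, by tissue, with germinating seed at the left, shoot tissues in the middle and roots at the right. Points are libraries and bars tissue means, and every root library is at 0 for all 5 transcripts.

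The most abundant members had root signal and a different shape. TRINITY_DN49528_c1_g1_i1 had the highest shoot mean of the set, 1820, and passed the rule with root values that were high in absolute terms. It measured 2611, 1438 and 2349 in plumule, 6287, 6554 and 7200 in young leaf, 703, 728 and 650 in crown meristem, and 332 and 402 in vegetative stem. The panicle libraries held 980, 1322 and 1035 early, 509, 1105 and 633 mid, and 613, 641 and 313 late, against 21.9, 9.47 and 0 in radicle and 78.3 and 19.7 in young root. No root library came near a shoot library, although young root library 1 lay above 35.7, the median shoot mean of the set.

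TRINITY_DN2219_c0_g1_i8 and TRINITY_DN14114_c0_g1_i2 came next and also led in young leaf. They averaged 2187 ± 217 and 1783 ± 63.5 in young leaf, 326 ± 92.4 and 554 ± 114 in plumule, and 328 ± 89.6 and 415 ± 199.4 in early panicle. Their radicle means were 1.28 ± 1.29 and 3.06 ± 0.543, and their young root means 6.77 ± 6.96 and 0. The most abundant members were thus leaf-rich, and young root and radicle did not keep 1 order between them.

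Summed over the set, the 200 members held 2.10 ± 0.0721% of the library total in plumule, 2.49 ± 0.0483% in young leaf, 1.21 ± 0.0320% in crown meristem and 1.39 ± 0.0515% in vegetative stem. In the panicle the share was 1.73 ± 0.0180% early, 1.28 ± 0.130% mid and 0.759 ± 0.0400% late, and in roots it was 0.0149 ± 0.00552% in radicle and 0.0128 ± 0.00289% in young root. A few transcripts carry much of this sum: TRINITY_DN49528_c1_g1_i1 alone made up 22.3% to 24.6% of it in the young leaf libraries, and the 5 most abundant members 44.1% to 47.3%. Without these 5, the shoot shares still ran from 1.68 ± 0.00941% in plumule to 0.653 ± 0.0417% in late panicle. The shares divide by the library total, and these totals differ between tissues after TMM scaling. Medians of the TMM-scaled tissue means do not divide by it, and they gave a flatter picture. They were 43.3 in plumule, 42.6 in young leaf, 25.0 in crown meristem and 31.3 in vegetative stem. In early, mid and late panicle they were 30.7, 29.1 and 28.2. The corresponding medians were 0.660 in radicle and 0.666 in young root.

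**Figure D2:**
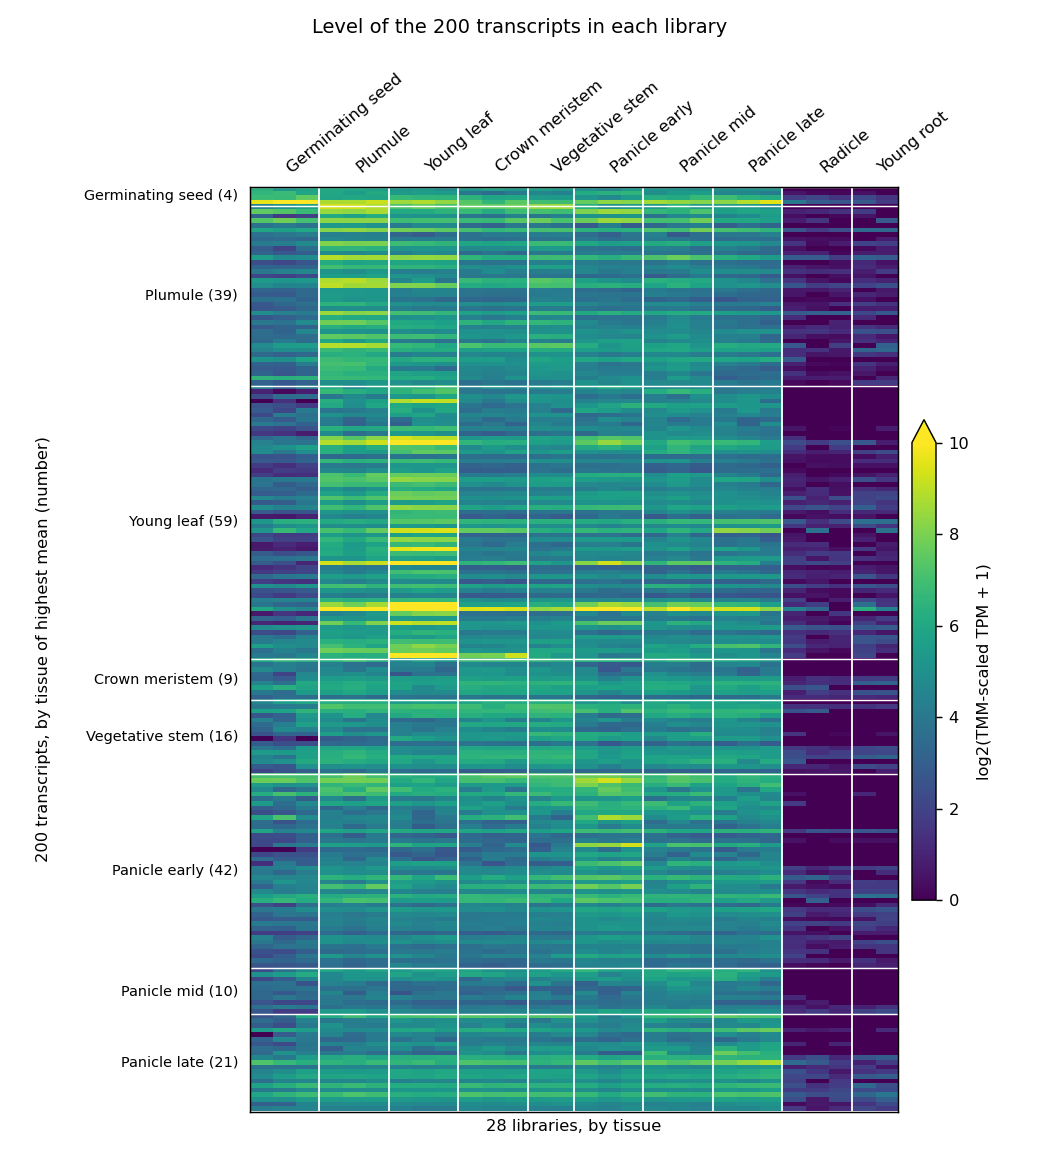
log2(value + 1) of the 200 transcripts in all 28 libraries (columns, by tissue), with rows grouped by the tissue of their highest mean and ordered by score within each group; the colour scale ends at 10, and higher values share its last colour. The 5 root libraries at the right are dark for most rows, with lighter cells such as those of TRINITY_DN49528_c1_g1_i1, and the 3 germinating seed libraries at the left are intermediate for most rows.

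Complete absence from a tissue was rare, and it was most frequent in young root. Transcripts at 5 or more in every library of all other tissues were counted. Of these, 36 of 4532 were at 0 in both young root libraries and 17 of 5813 in all radicle libraries. The counts were 9 of 4588 in all young leaf libraries and 1 of 4165 in both vegetative stem libraries. By share, radicle thus lay closer to young leaf than to young root. Young root and vegetative stem have fewer libraries than radicle and young leaf, so fewer zeros were needed there. No transcript was absent in this way from plumule, crown meristem, germinating seed or a panicle stage. The mirror pattern, 5 or more in all 5 root libraries and 0 in all 20 shoot libraries, was found for 16 of 7805 transcripts that met the floor in roots. Fewer transcripts were detected in the root libraries in general: 26295 to 28321 had a value of 1 or more there, against 29631 to 45996 in the other libraries, and the part of this difference in the root zeros was not tested.

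Within the shoot, the members were far from uniform. The highest of the 7 shoot tissue means was a median of 3.67 times the lowest, with a range from 1.28 to 96.5 times, against a median of 2.74 for the other transcripts that met the floor. It was under 2 times for 45 members and over 10 times for 26. limma's moderated F across the 7 shoot tissues passed an adjusted p of 0.05 for 158 of 200 members. The same held for 47.5% of all tested transcripts and for 77.1% of the 8672 that met the floor, so the members' share is close to that of other transcripts present throughout the shoot.

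The most even member, chosen after its values were seen, was TRINITY_DN2764_c1_g2_i3. It averaged 33.4 ± 1.66 in plumule, 28.05 ± 1.76 in young leaf, 31.7 ± 1.22 in crown meristem, 32.5 ± 0.955 in vegetative stem, and 31.3 ± 3.30, 26.0 ± 2.31 and 31.0 ± 3.07 in early, mid and late panicle. Its root means were 1.66 ± 0.262 in radicle and 4.58 ± 0.167 in young root. It was higher in young root than in radicle (limma log2 difference 1.08, SE 0.25, adjusted p = 0.00273). That call was lost when only the 2 root tissues were fitted (limma adjusted p = 0.354), with a common library sum (log2 difference 0.29, adjusted p = 0.751), under quantile normalization (0.64, adjusted p = 0.0718) and with a pseudocount of 5 (0.53, adjusted p = 0.066). Without radicle library 3 the difference was 0.997, under the limit of 1.

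By the tissue of the highest mean among all 10, the members split into young leaf (59), early panicle (42), plumule (39), late panicle (21), vegetative stem (16), mid panicle (10), crown meristem (9) and germinating seed (4). Early panicle held 21% and plumule 19.5% of the members, against 8.50% and 7.31% of the other transcripts that met the floor. Young leaf held 29.5% of the members and 23.3% of those others. Because the rule bars a root maximum for the members and not for the others, these shares are a description.

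The 59 young-leaf-highest members had plumule as their second tissue in 38 cases. Of the 39 plumule-highest members, the second tissue was young leaf for 18 and vegetative stem for 14. TRINITY_DN49528_c1_g1_i1 was the most abundant of the first kind and TRINITY_DN41947_c0_g1_i1 of the second. TRINITY_DN41947_c0_g1_i1 measured 629, 618 and 443 in plumule, 140, 200 and 134 in young leaf, 188, 188 and 212 in crown meristem, and 341 and 373 in vegetative stem. Its panicle means were 49.2 ± 22.9, 56.4 ± 22.7 and 40.02 ± 10.4 from early to late, and it was at 0 in all roots. It thus separated the young and vegetative shoot from the panicle without any overlap of libraries.

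Other tissues had their own leading members. TRINITY_DN2120_c0_g1_i1 had its highest mean in vegetative stem, 149 ± 5.56, with 132 ± 19.0 in plumule and 128 ± 6.47 in young leaf. TRINITY_DN10462_c0_g1_i1 led in late panicle with 337 ± 95.3, against 178 ± 26.2 in mid panicle, 158 ± 27.9 in early panicle and between 91.6 and 138 in the means of the other shoot tissues. The gap between late and mid panicle did not pass the test for this transcript (limma log2 difference 0.89, SE 0.34, adjusted p = 0.111).

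The shoot tissues were compared step by step in the order of their sampling times. Differences below are on the log2(value + 1) scale from limma, fitted on all 77548 transcripts, and a call needs an adjusted p (Benjamini-Hochberg) under 0.05 together with a difference of 1 or more in size. Across the 6 steps, 80 members were called in none, 50 in 1, 41 in 2, 18 in 3, 9 in 4 and 2 in 5. This count was not made for other transcripts, so nothing particular to the set is read from it. Every step had called members in both directions.

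**Figure D3:**
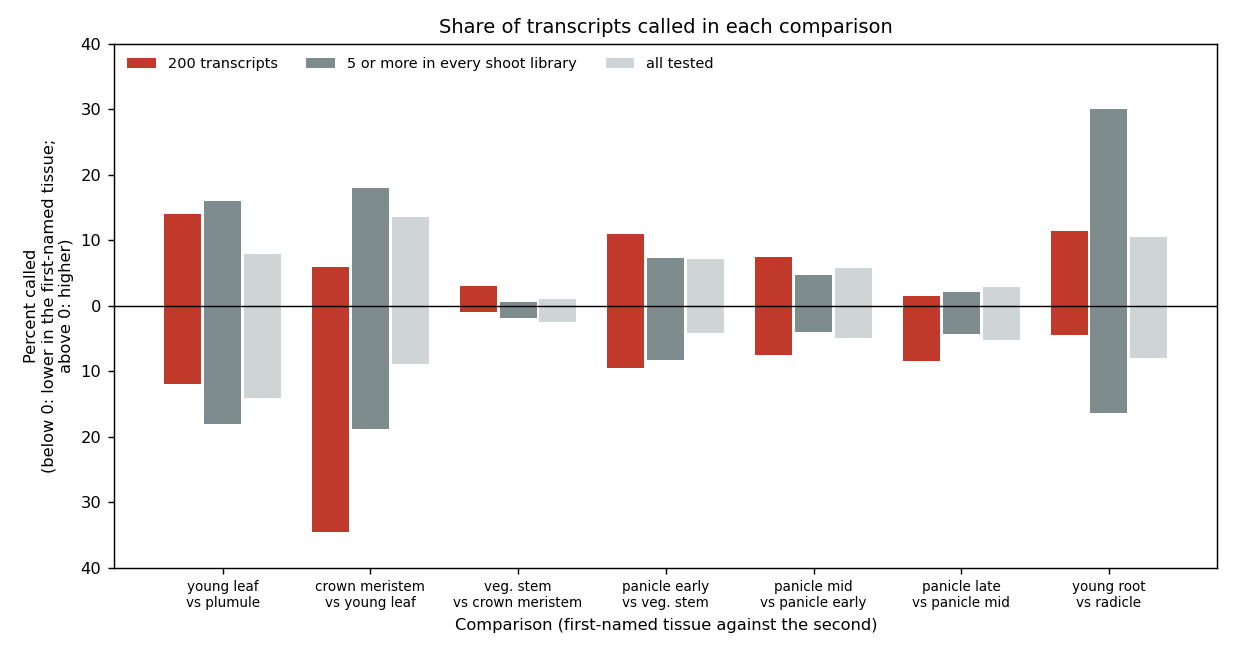
Percent of transcripts called higher (above 0) and lower (below 0) in the first-named tissue of each comparison, for the 200 transcripts, the 8672 that met the shoot floor and all 77548 tested. The longest bar of the set is that of transcripts lower in crown meristem than in young leaf, 34.5%.

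Between young leaf and plumule the set split almost evenly. In young leaf, 28 members were higher and 24 lower than in plumule, against 7.87% of all tested transcripts higher and 14% lower, and against 16% and 18% of those that met the shoot floor. The members' median difference was -0.0026, and that of all tested transcripts -0.19. Scaling each library to a common sum changed the split to 17 higher and 51 lower, and moved the median of all transcripts to -0.38.

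TRINITY_DN5067_c0_g1_i2 had the largest rise. It measured 1973, 2424 and 2229 in young leaf, against 84.3, 72.3 and 78.1 in plumule (limma log2 difference 4.80, SE 0.49, adjusted p = 7.51e-08). Its crown meristem values were 230, 248 and 611, and its other shoot libraries lay between 15.3 and 66.0, which gave it the widest shoot range of the set at 96.5 times. TRINITY_DN9394_c2_g1_i3 had the largest fall, with 22.5, 45.2 and 13.7 in young leaf, against 447, 498 and 370 in plumule (limma log2 difference -4.11, SE 0.36, adjusted p = 8.1e-09). Libraries of the compared tissues did not overlap for either transcript, which the way of choosing them required. Both transcripts were under 4 in every root library.

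Between crown meristem and young leaf most of the changes in the set were falls. In crown meristem, 69 members were lower and 12 higher than in young leaf, against 8.92% of all tested transcripts lower and 13.6% higher. Among the 8672 that met the floor, 18.8% were lower and 18% higher, so lower calls were more frequent in the set (34.5%) than in either background and higher calls less frequent (6%). This difference in share was not itself tested. Of the 69, 49 were among the 59 members with their highest mean in young leaf, a group defined from partly the same values. The members' median difference was -0.35 against 0 for all transcripts. Under a common sum the median of the members became 0.30 with 41 higher and 49 lower. Quantile normalization gave a median of -0.32 with 15 higher and 62 lower. The balance of this step thus depends on which scaling of the libraries is used.

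The largest fall was that of TRINITY_DN2219_c0_g1_i8, with 51.6, 53.5 and 57.3 in crown meristem, against 1940, 2278 and 2344 in young leaf (limma log2 difference -5.31, SE 0.45, adjusted p = 3.38e-09). TRINITY_DN19774_c1_g1_i1 had the largest rise, with 72.3, 84.1 and 123 in crown meristem, against 26.8, 9.51 and 15.3 in young leaf (limma log2 difference 2.45, SE 0.51, adjusted p = 0.000682). The libraries of the 2 tissues did not overlap in either case, which the choice of these transcripts required.

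Of the 6 steps, the one between vegetative stem and crown meristem had the fewest called members. In vegetative stem, 6 members were higher and 2 lower, against 1.05% of all tested transcripts higher and 2.45% lower, and 0.623% and 1.94% of those that met the floor. TRINITY_DN48052_c1_g1_i2 had the largest rise, with 24.9 and 29.1 in vegetative stem, against 11.5, 8.07 and 7.41 in crown meristem (limma log2 difference 1.51, SE 0.32, adjusted p = 0.00749). TRINITY_DN19774_c1_g1_i1 was lower, with 15.8 and 8.16 in vegetative stem, against 72.3, 84.1 and 123 in crown meristem (limma log2 difference -2.89, SE 0.57, adjusted p = 0.00387). The 2 tissues lie in different series of library identifiers, so tissue and series cannot be told apart. Both calls were lost when only these 2 tissues were fitted (adjusted p = 0.0685 and 0.0626 by limma) and without vegetative stem library 2 (0.105 and 0.100002). They were also lost with the identifier series as a covariate (limma adjusted p = 0.109 and 0.0782), where the log2 differences stayed at 1.51 and -2.89. That term is estimated from radicle and young root, the tissues with libraries in both series, so it does not separate tissue from series here. Without vegetative stem library 1 or library 2, 1 member was higher, and without library 2, 0 were lower.

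Early panicle differed from vegetative stem in both directions. In early panicle, 22 members were higher and 19 lower, against 7.16% of all tested transcripts higher and 4.2% lower, and 7.25% and 8.21% of those that met the floor. The direction differed between 2 groups of members. Of the 59 young-leaf-highest members, 11 were higher in early panicle and 3 lower. Of the 39 plumule-highest members, 2 were higher and 10 lower. That difference between the 2 groups was not tested, and the split was not made for other transcripts. For early-panicle-highest members (7 higher, 0 lower) and vegetative-stem-highest members (0 higher, 3 lower), the grouping itself set the direction. The other groups had at most 2 called members each.

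The largest rise was in TRINITY_DN19960_c0_g1_i1, with 327, 347 and 658 in early panicle, against 5.73 and 16.7 in vegetative stem (limma log2 difference 5.27, SE 0.55, adjusted p = 5.37e-07). Its panicle means went on to 109 ± 48.5 mid and 61.9 ± 17.3 late. TRINITY_DN19774_c1_g1_i1 also rose, with 122, 451 and 364 in early panicle, against 15.8 and 8.16 in vegetative stem (limma log2 difference 4.46, SE 0.57, adjusted p = 9.51e-06). TRINITY_DN41947_c0_g1_i1, the plumule-rich transcript above, had the largest fall, with 75.1, 31.9 and 40.5 in early panicle, against 341 and 373 in vegetative stem (limma log2 difference -2.93, SE 0.35, adjusted p = 3.77e-06).

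**Figure D4:**
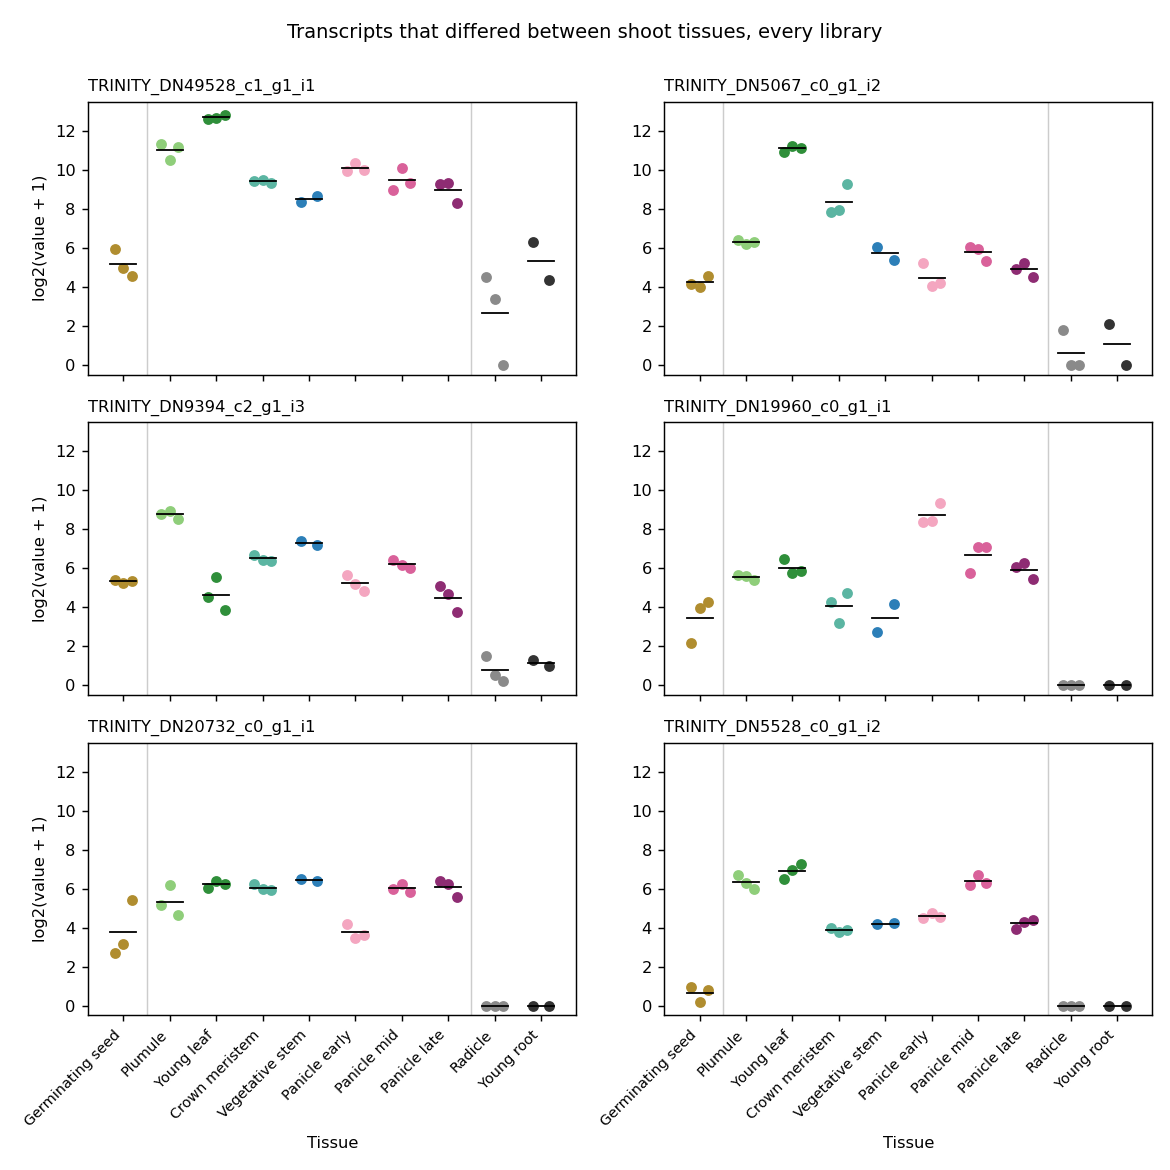
Level (log2 of TMM-scaled TPM + 1) of 6 transcripts in every library, by tissue. Points are libraries and bars tissue means. The highest mean is in young leaf for TRINITY_DN49528_c1_g1_i1, TRINITY_DN5067_c0_g1_i2 and TRINITY_DN5528_c0_g1_i2. It is in plumule for TRINITY_DN9394_c2_g1_i3, early panicle for TRINITY_DN19960_c0_g1_i1 and vegetative stem for TRINITY_DN20732_c0_g1_i1. By the rule, every root library lies below every shoot library.

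The panicle stages were compared in order of age. In mid panicle, 15 members were higher and 15 lower than in early panicle, against 5.76% of all tested transcripts higher and 4.98% lower, and 4.7% and 3.96% of those that met the floor. TRINITY_DN20732_c0_g1_i1 had the largest rise, with 61.5, 74.3 and 56.4 in mid panicle, against 17.3, 9.91 and 11.4 in early panicle (limma log2 difference 2.26, SE 0.45, adjusted p = 0.00132). Early panicle was the low point of this transcript among the shoot tissues, whose other means lay between 43.2 and 86.6. TRINITY_DN19774_c1_g1_i1 had the largest fall, with 27.2, 44.7 and 83.6 in mid panicle, against 122, 451 and 364 in early panicle (limma log2 difference -2.51, SE 0.51, adjusted p = 0.00148). The last call was lost when only these tissues were fitted (limma adjusted p = 0.122). Without mid panicle library 1, 9 members were higher in mid panicle in place of 15.

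In late panicle, 3 members were higher and 17 lower than in mid panicle, against 2.81% of all tested transcripts higher and 5.16% lower, and 2.11% and 4.27% of those that met the floor. Fitting only the 2 tissues gave 0 higher and 3 lower, and a pseudocount of 0.1 gave 0 higher and 8 lower. Of the 17 lower members, 8 had their highest mean in young leaf and 5 in plumule. TRINITY_DN5528_c0_g1_i2 had the largest fall, with 14.5, 18.5 and 20.3 in late panicle, against 72.4, 104 and 76.5 in mid panicle (limma log2 difference -2.18, SE 0.22, adjusted p = 5.87e-07). It had risen between early and mid panicle, where its early values were 21.9, 25.6 and 22.4 (limma log2 difference 1.80, SE 0.22, adjusted p = 3.63e-06), so its panicle level peaked mid.

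TRINITY_DN10873_c0_g1_i6 had the largest rise without overlap of libraries, with 136, 152 and 92.8 in late panicle, against 52.8, 43.1 and 71.2 in mid panicle (limma log2 difference 1.17, SE 0.36, adjusted p = 0.0382). That call was lost with a pseudocount of 0.1, when only the 2 tissues were fitted, without mid panicle library 1 or 2 or late panicle library 1 or 2, and under a common sum, where the difference was 0.54 (limma adjusted p between 0.0849 and 0.303). Under a common sum 65 members were lower in late panicle and 0 higher, and the median of all transcripts moved to -0.17. Without late panicle library 3, 9 members were lower. Without late panicle library 2, 0 were higher, and without mid panicle library 2, 1 was.

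The roots themselves were compared for the order between their ages, which the rule left free. In young root, 23 members were higher and 9 lower than in radicle, against 10.5% of all tested transcripts higher and 7.93% lower, and 30% and 16.4% of those that met the shoot floor. The 54 members at 0 in all roots could not be called. TRINITY_DN8782_c1_g1_i4 had the largest rise without overlap, with 8.27 and 9.38 in young root, against 1.45, 1.66 and 0.554 in radicle (limma log2 difference 2.18, SE 0.19, adjusted p = 1.4e-08). Its shoot means lay between 45.8 and 98.5. TRINITY_DN16209_c1_g1_i1 had the largest fall, listed at 0 in both young root libraries, against 6.16, 7.99 and 2.90 in radicle (limma log2 difference -2.66, SE 0.28, adjusted p = 2.91e-07).

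These root levels are low, and the counts of calls changed with the pseudocount and with the scaling of the libraries. A pseudocount of 0.1 gave 50 members higher and 15 lower in young root, and one of 5 gave 3 higher and 1 lower. Library sums divided by their geometric mean were 2.75 and 3.20 in young root, 1.48 to 1.57 in radicle and 0.661 to 1.23 elsewhere, which shows the size of the TMM scaling in young root. When only the 2 root tissues were fitted, 0 members were called. Their log2 differences were unchanged there, and the limma adjusted p was 0.104 for TRINITY_DN8782_c1_g1_i4 and 0.129 for TRINITY_DN16209_c1_g1_i1. With all libraries at a common sum, 1 member was higher and 8 lower in young root. Under quantile normalization 10 were higher and 10 lower. The 2 named transcripts were called under both scalings. The limma log2 difference of TRINITY_DN8782_c1_g1_i4 was 1.17 with the common sum (adjusted p = 0.000117) and 1.67 under quantile normalization (adjusted p = 5.94e-07). That of TRINITY_DN16209_c1_g1_i1 was -2.16 (limma adjusted p = 5.3e-06) and -3.10 (adjusted p = 4.25e-08). Without radicle library 1 or young root library 2, 5 members were lower in place of 9.

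The distance between root and shoot was then compared between 13 days (young root minus young leaf) and 3 days (radicle minus plumule). A positive value of this interaction means that the root lay less far below the shoot at 13 days. It was positive for 37 members and negative for 22, against 14.4% of all tested transcripts positive and 8% negative, and 31.2% and 15.9% of those that met the floor. The members' median was 0.33 and that of all transcripts 0.26. With a common sum these medians were 0.37 and 0.22, with 41 members positive and 19 negative. Under quantile normalization they were 0.10 and 0, with 30 members positive and 21 negative. There, 7544 of all tested transcripts were positive and 8682 negative, so the balance of this comparison depends on the scaling. Of the 37 positive members 20 had their highest mean in plumule. Of the 22 negative ones 17 had it in young leaf. These are groups defined partly from the same libraries.

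The largest interactions were those of the transcripts with the largest fall and rise between young leaf and plumule. TRINITY_DN9394_c2_g1_i3 had 1.43 and 0.971 in young root and 13.7 to 45.2 in young leaf, against 1.84, 0.452 and 0.166 in radicle and 370 to 498 in plumule (interaction 4.49, SE 0.54, limma adjusted p = 1.55e-06). TRINITY_DN5067_c0_g1_i2 had 3.33 and 0 in young root and 1973 to 2424 in young leaf, against 2.40, 0 and 0 in radicle and 72.3 to 84.3 in plumule (interaction -4.33, SE 0.73, limma adjusted p = 0.000103). With a pseudocount of 0.1 the interaction of TRINITY_DN5067_c0_g1_i2 was -3.81 and its call was lost (limma adjusted p = 0.0697). In both transcripts the root values stayed under 4 at both ages while the shoot values differed between the ages.

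The interaction is the young root minus radicle difference less the young leaf minus plumule difference. Of the 59 members called, the difference between the shoots was the larger of these in size for 38 and the difference between the roots for 21. The rule kept the members' root values below their shoot values, and members at 0 in all roots have no root difference. The split is therefore a description, and it was not made for other transcripts. For TRINITY_DN9394_c2_g1_i3 and TRINITY_DN5067_c0_g1_i2 the interaction lay mostly in the shoots, whose log2 differences between young leaf and plumule were -4.11 and 4.80. For TRINITY_DN8782_c1_g1_i4 (interaction 2.63) it lay mostly in the roots, with 2.18 between young root and radicle and -0.45 between young leaf and plumule. The same held for TRINITY_DN16209_c1_g1_i1 (interaction -2.70), with -2.66 between the roots and 0.04 between the shoots.

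Germinating seed was the only tissue the rule did not use, and the members' seed level lay mostly between shoot and root. In 188 of 200 members every seed library was above every root library, which held for 4028 of the 8472 other transcripts that met the floor. In 76 members every seed library was below every shoot library, against 626 of those 8472, and in 65 members the seed libraries lay between all shoot and all root libraries. In 43 members every seed library was at or above the lowest shoot library, against 6370 of the 8472. Because shoot and root values chose the members, these counts are a description with no test.

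On a scale where the root mean of log2(value + 1) is 0 and the shoot mean is 1, the members' median place in seed was 0.687, with quartiles of 0.560 and 0.867 and a range from -0.0231 to 1.35. The 3 seed libraries gave medians of 0.642, 0.635 and 0.795. Seed lay a median of 1.25 below the shoot mean and 2.72 above the root mean on the log2 scale. Among the other transcripts that met the floor, seed lay 0.03 above the shoot mean. The seed deficit shrank down the ranking, with medians of -1.25 for ranks 1 to 200, -0.93 for ranks 201 to 500, -0.64 for ranks 501 to 1000 and -0.40 for ranks 1001 to 2000. The shoot values that enter the score also enter this difference.

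**Figure D5:**
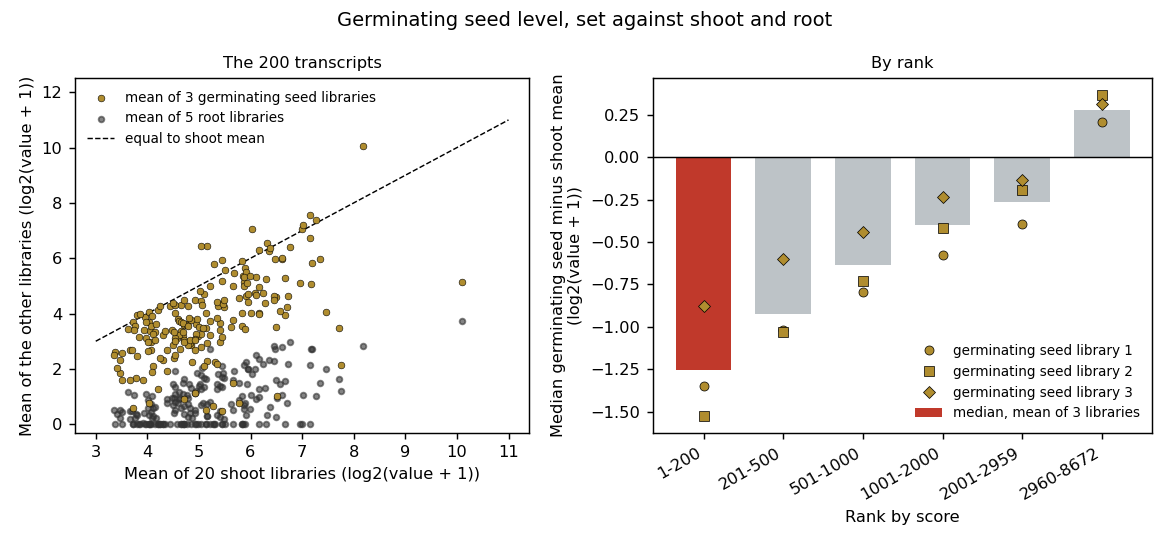
Left, mean log2(value + 1) of the 3 germinating seed and the 5 root libraries against that of the 20 shoot libraries for the 200 transcripts, with a dashed line at equality. Right, median difference of germinating seed from the shoot mean by rank of the score among the 8672 transcripts that met the floor, as bars for the mean of the 3 libraries and as points for each; the bar of the 200 transcripts is at -1.25.

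Grouped by the tissue of the highest mean, the median seed place was 0.533 for the 59 young-leaf-highest members, 0.676 for the 39 plumule-highest, 0.700 for the 42 early-panicle-highest, 0.719 for the 16 vegetative-stem-highest, 0.814 for the 10 mid-panicle-highest, 0.840 for the 21 late-panicle-highest and 0.926 for the 9 crown-meristem-highest. It was 1.25 for the 4 members highest in seed itself. Differences between these groups were not tested. Of 11 members with a seed mean under 2, 9 had their highest mean in young leaf. TRINITY_DN17917_c0_g1_i1 had the lowest seed mean, with 0, 1.71 and 0 in seed, against 442, 567 and 530 in young leaf and between 10.4 and 74.8 in the other shoot libraries. It was at 0 in all roots.

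TRINITY_DN766_c0_g1_i10 had the highest seed mean, 1099 ± 278. Its seed libraries held 782, 1300 and 1214, against 303, 466 and 762 in late panicle and 428, 438 and 587 in plumule. Its remaining shoot libraries lay between 95.0 and 446, and its root libraries between 2.24 and 15.7. It was the only member with every seed library above every shoot library. The 54 members without root signal had a median seed place of 0.763, against 0.673 for the other 146, and a lower median shoot mean, 28.6 against 41.3. A transcript at 0 in all roots could enter the set with a lower shoot value, so the score itself favours the gap in shoot mean. A root mean above 0 lowers the seed place wherever seed lies below the shoot mean, so the scale itself favours the gap in seed place. The lowest shoot value had a median of 8.67 in the 54 and 16.0 in the 146. Neither difference was tested.

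The members came from separate assembly clusters, apart from 1 cluster with 2 members, TRINITY_DN1198_c0_g1_i50 and TRINITY_DN1198_c0_g2_i10. The table holds 1 isoform for each assembled gene. The highest-scored pair with a shared assembly number was TRINITY_DN2764_c4_g1_i3 and TRINITY_DN2764_c1_g2_i3, which lie in different clusters. The cluster mates of all 200 members bear on how far the pattern is shared. In 38 of the members' clusters there were 46 further transcripts, 45 of which were tested. Of these, 27 were higher in shoots and 2 lower. The 27 of 45 are 60% of the mates, against 20.9% of all tested transcripts and 56.8% of those that met the floor. Mates can share sequence and reads with the members, so they are not independent of them.

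Both kinds of mate were seen, and the examples were chosen after their values were known. TRINITY_DN2494_c0_g2_i1 had 3091, 2713 and 2859 in young leaf, against 18.1 and 4.87 in young root, and the member of its cluster, TRINITY_DN2494_c0_g1_i13, averaged 540 ± 52.5 in young leaf, against 1.77 ± 1.32 in young root. TRINITY_DN3664_c0_g1_i2 went the other way. It had 1.05, 1.38 and 0.667 in young leaf, against 57.0 and 29.2 in young root (shoot minus root -2.59, SE 0.20, limma adjusted p = 1.35e-10), while the member of its cluster, TRINITY_DN3664_c0_g2_i2, had 983, 1091 and 1052 in young leaf, against 5.58 and 0.712 in young root. The assembly cluster thus held a shoot-rich and a root-rich transcript side by side.

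Which transcripts belong to the set depends on the settings of the rule. With a floor of 2 in place of 5, 154 of the 200 members stayed in the top 200, and with a floor of 10, 128. A pseudocount of 0.1 in the score kept 176 and one of 10 kept 105. Scaling to a common sum kept 118 and quantile normalization 153. Leaving out a library kept between 125 and 200, with 125 without young root library 2 and 129 without young root library 1, the libraries that most often held the highest root value.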

How the data were processed

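RNA from 10 tissues of little millet (28 libraries) was sequenced from TruSeq libraries after extraction with either of 2 methods. Which library had which was not given in the sources used here. Per the labels' design text, the authors assembled the transcriptome with Trinity and estimated TPM with kallisto. The submitters' processing notes list CASAVA, Trimmomatic and kallisto, whose versions were not given in the sources used here. Each deposited signal value of a transcript is TPM scaled by the authors with TMM (a factor per library), as the name of the table says, so it keeps no counts, and depth and counting intervals are unknown. Young root libraries have the largest sums under this scaling.

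The members and the lists were chosen with earlier results of these data known. All columns matched 1 sample each. The filter kept transcripts reaching 1 in 2 or more libraries (77548). limma 3.58.1 (R 4.3.3) was fitted to log2(value + 1) with a mean for each tissue, an intensity trend and 18 residual degrees of freedom. The log2 differences understate changes of low transcripts. Calls needed a Benjamini-Hochberg adjusted p below 0.05, two-sided, and an absolute difference of at least 1. Scripts used Python 3.11.15, pandas 2.3.3, numpy 2.4.6 and matplotlib 3.10.9, and the fit was tested on simulated data. The named transcripts are the 5 of highest score, the 3 others of highest shoot mean, those around the threshold, the leading one for each tissue, the largest rise and fall without overlap of libraries for each comparison, and the highest and lowest in seed. Alternatives changed the pseudocount, the filter or the scaling, added a replicate block or the identifier series as covariate, or were fits of only the groups compared or fits leaving out each library. No transcript annotation was used here. Library identifiers form 2 series: 13 libraries (vegetative stem, panicle stages, radicle 3 and young root 2) lie in one and 15 in the other.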

Additional observations from a re-analysis of the deposited data

Results flagged for a closer look

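The root-to-shoot difference was compared between 13 and 3 days by limma's test of the difference itself. The interaction was positive for 37 members (18.5%) and negative for 22 (11%), against 14.4% and 8% of all tested transcripts and 31.2% and 15.9% of those that met the shoot floor. The 2 largest were TRINITY_DN9394_c2_g1_i3 at 4.49, which was low in young leaf and high in plumule, and TRINITY_DN5067_c0_g1_i2 at -4.33, which was high in young leaf and low in plumule. Root values of both stayed under 4 in all 5 root libraries. Their young leaf minus plumule differences were -4.11 and 4.80, so these 2 interactions lay mostly in the shoots. Of the 59 members called, the difference between the shoots was the larger in size for 38 and that between the roots for 21. Because the rule kept root values below shoot values, that split is a description. The call of TRINITY_DN5067_c0_g1_i2 was lost with a pseudocount of 0.1, where the interaction was -3.81. Under quantile normalization 30 members were positive and 21 negative, and 7544 of all tested transcripts were positive and 8682 negative.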

How the results depend on the processing

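Direction was checked for the largest rise and fall without overlap in each comparison, and none of these changed direction under any alternative run. Other named transcripts were not checked in this way. The members' median for crown meristem against young leaf was 0.30 with a common library sum, against -0.35 as deposited and -0.32 under quantile normalization. With a common library sum, young leaf against plumule had 17 members higher and 51 lower, crown meristem against young leaf 41 higher, vegetative stem against crown meristem 11 higher, late against mid panicle 0 higher and 65 lower, and young root against radicle 1 higher. Quantile normalization gave 23 lower in mid against early panicle, 5 higher in late against mid panicle and 10 higher in young root. A pseudocount of 0.1 gave 3 higher and 1 lower in vegetative stem, 9 lower in mid panicle, 0 higher and 8 lower in late panicle, and 50 higher and 15 lower in young root. A pseudocount of 5 gave 3 higher and 1 lower in young root and a median seed place of 0.593. Fitting only the groups compared gave 1 lower in vegetative stem, 8 higher and 3 lower in mid panicle, 0 higher and 3 lower in late panicle, and 0 higher and 0 lower in young root. The library series as a covariate gave 0 lower in vegetative stem, while the log2 difference of TRINITY_DN19774_c1_g1_i1 stayed at -2.89. The series term rests on radicle and young root libraries, so this says nothing of series in vegetative stem. The cause was not tested in any of these. Leaving out each library gave 1 to 7 higher and 0 to 2 lower in vegetative stem, 9 to 16 higher and 10 to 17 lower in mid panicle, 0 to 4 higher and 9 to 22 lower in late panicle, and 19 to 30 higher and 5 to 9 lower in young root. The replicate numbers give no pairing across the tissues: same-numbered libraries correlated at 0.00214 on average, with 3 of 118 pairs over 0.1. Those 3 were all plumule with early panicle (0.444, 0.126 and 0.254), which meet only in the F test over the 7 shoot tissues, where 156 members passed with the block and 158 without it. With the replicate number as a block, young leaf against plumule kept 28 higher and 24 lower calls, and no count moved by over 1.5 times. Leaving out germinating seed 1 and plumule 1 together, a pair chosen after the data were seen, gave 27 and 23. Low root values limit every statement on the order of the root ages.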
